A study of Drosophila melanogaster with 24 samples.

Results

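The genes examined were 10 genes of ecdysone response and metabolism in Drosophila melanogaster, taken by name: EcR, usp, Eip74EF, Eip75B, Hr4, Hr38, br, ImpE1, shd and fiz. They are 10 of 14220 genes to which the quantified transcripts could be summed, and all 10 passed the filter on low counts that left 10184 genes for testing. The tissue was the abdominal carcass of adult females, from which total RNA was sequenced. It is the body wall with the fat body on it, after removal of gonads, gut and most of the Malpighian tubules. The groups were Selected populations raised on poor larval diet, Selected populations raised on standard larval diet, Control populations raised on poor larval diet and Control populations raised on standard larval diet, with 6 libraries each, so that the population is the replicate. Populations S1 to S6 carry the label Selected and C1 to C6 the label Control for evolutionary regime, every population was raised on both diets, and each library was a pool of 10 carcasses. The poor diet held yeast, sugars and cornmeal at 0.25 of their standard concentration. All flies ate standard food from day 1 of adult life and were mated females of about 4 days, so "poor" and "standard" refer only to the food of the larva. The labels name no transgene, driver or mutation in any group and do not say what the Selected populations were selected for.

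Ecdysone is the steroid hormone of insects that times moulting and metamorphosis. Its active form, 20-hydroxyecdysone, binds a heterodimer of the nuclear receptors EcR and usp, and the bound receptor switches on a first tier of transcription factors such as Eip74EF, Eip75B and br, which in turn act on later targets. In adult females the hormone comes largely from the ovary, and the fat body, where yolk proteins are made, is among the tissues that respond to it. The enzyme shd converts ecdysone to its active form in peripheral tissues, and enzymes of the oxidase type are thought to inactivate it.

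Library totals ranged from 29389749 to 31473757 estimated counts, except for S2 on standard diet with 22386162. Titles and characteristics of the labels contradict each other: the title names the other diet in 24 of 24 libraries and the other regime in 12, and its population number differs in 19. The 2 libraries of a population are the same by title and by characteristics for 6 of 12 pairs. Every direction and every pairing of libraries below therefore rests on the characteristics. Muscle, fat body and oenocyte markers were abundant in all groups, with summed levels of at least 3077, 6062 and 32897 TPM in every library. Markers of tissues meant to be removed were also present and varied: germline and oocyte markers summed to between 11.6 and 740.3 TPM, chorion and vitelline membrane genes of follicle cells to between 0.871 and 3836 TPM, and midgut digestive enzymes to between 199.7 and 18982 TPM. All 11 germline markers had positive fold changes in Selected relative to Control populations, with a median of 1.02 on the log2 scale. Of 7 blood cell (hemocyte) markers, 6 had negative ones, with a median of -0.38. None of these germline or hemocyte markers passed the regime test. On poor relative to standard diet, 8 of 9 fat body markers had negative fold changes, 4 of them past the test (Yp1, Yp2, Yp3 and fit), 10 of 11 midgut enzymes and 8 of 8 tested follicle cell genes had negative fold changes, and 7 of 7 neuronal markers had positive ones. None of the midgut, follicle cell or neuronal markers passed the diet test. Of 9 Malpighian tubule markers, 5 had negative diet fold changes. Muscle markers had medians of 0.02 for regime and 0.15 for diet, and oenocyte markers of -0.12 and 0.12, on the log2 scale.

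Levels between genes were compared per transcript length, as TPM (transcripts scaled for length and library size), and levels between libraries as CPM (counts scaled for library size). Eip75B was the highest with a mean of 36.5 ± 7.49 TPM, and usp followed with 23.8 ± 4.03 TPM (SD over 24 libraries). Next came fiz with 17.3 ± 22.8, Hr4 with 14.8 ± 6.56 and EcR with 10.9 ± 1.57 TPM. The neighbours from usp to EcR in this order differed by less than the larger of their SDs. Below them, shd averaged 7.30 ± 2.67 and Eip74EF 4.96 ± 1.34 TPM, which again differed by less than that. The lowest were br at 0.872 ± 0.665, Hr38 at 0.772 ± 0.240 and ImpE1 at 0.663 ± 0.615 TPM, which could not be ranked among themselves. ImpE1 and fiz had SDs close to or above their mean. In pooled tissue, fewer cells of a type and less RNA per cell cannot be told apart, and this holds for every level given here.

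**Figure D1:**
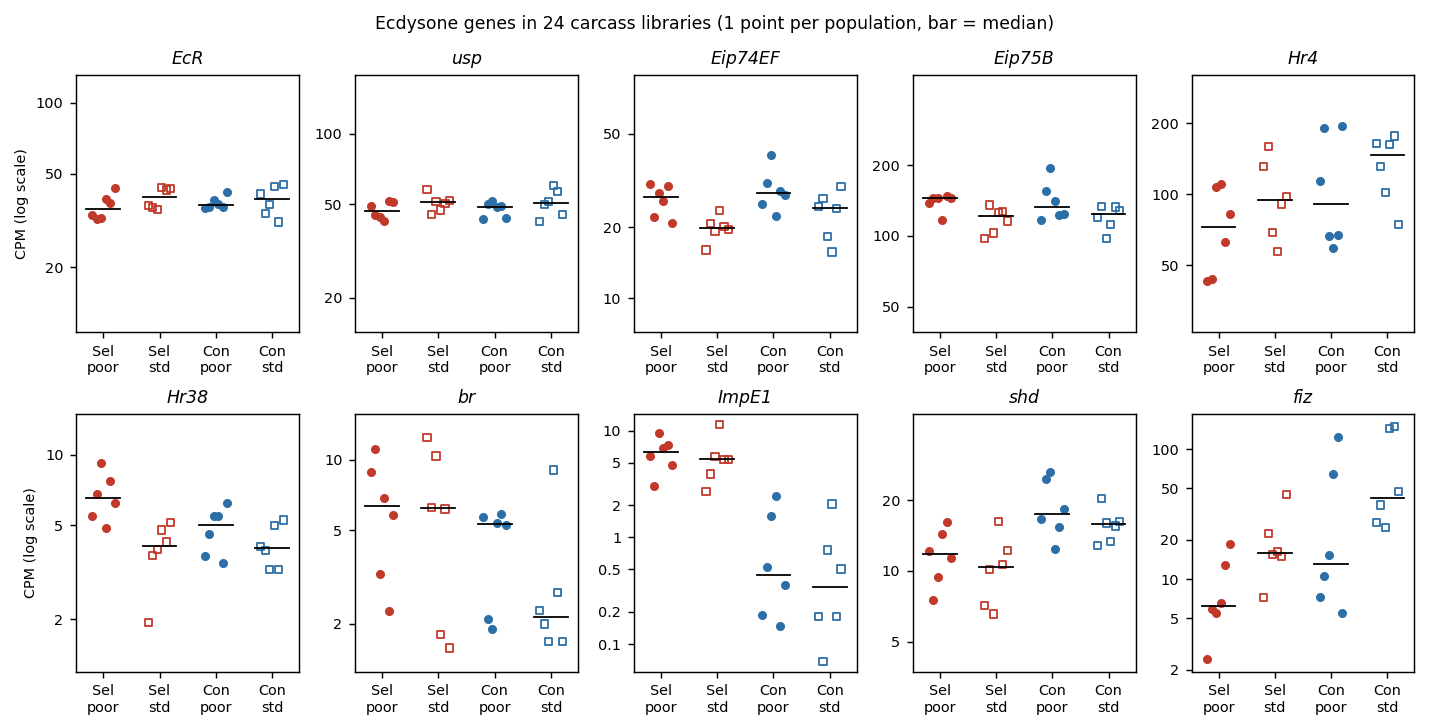
Level in CPM (log axis) of each gene in the 24 libraries, 1 point per population, with filled circles for poor and open squares for standard larval diet, red for Selected and blue for Control populations, and a bar at the group median. The points of ImpE1 separate by regime with no overlap, fiz lies lower on poor than on standard diet, and EcR and usp lie at about the same level in all 4 groups.

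The 2 receptor subunits varied least between libraries. EcR (FBgn0000546, chromosome 2R, 6087873 to 6169087, minus strand) had 32.1 to 43.3 CPM, median 35.5, in Selected flies on poor diet and 35.2 to 43.6 CPM, median 39.7, in Selected flies on standard diet. Control flies had 35.9 to 41.8 CPM, median 36.7, on poor diet and 31.1 to 44.9 CPM, median 38.9, on standard diet. All 4 ranges overlapped. Its partner usp (FBgn0003964, chromosome X, 2038798 to 2042311, minus strand) ran from 42.3 to 51.9 CPM, median 46.9, in Selected flies on poor diet and from 45.4 to 58.0 CPM, median 50.9, on standard diet. In Control flies usp ran from 43.4 to 51.8 CPM, median 48.9, on poor diet and from 42.1 to 60.3 CPM, median 50.7, on standard diet. For regime, the log2 fold change was -0.03 ± 0.09 (SE) for EcR, with an interval of 2 SE from -0.21 to 0.15, and -0.03 ± 0.07 for usp, with an interval from -0.16 to 0.11. For diet it was -0.08 ± 0.05 for EcR and -0.09 ± 0.04 for usp, neither past an adjusted p of 0.05 (adjusted p = 0.393 and 0.279). The usp locus lies within the span of Actn, a neighbour on the same strand, so reads of shared stretches are split by the quantification.

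The ETS-domain factor Eip74EF (FBgn0000567, chromosome 3L, 17558672 to 17619325, minus strand), an early gene of the ecdysone cascade, was among the genes closest to the diet threshold without passing it. Across all populations it had 21.0 to 40.7 CPM, median 27.7, on poor diet and 15.7 to 29.8 CPM, median 20.5, on standard diet. The ranges overlapped, and 11 of 12 populations were higher on poor diet. The log2 fold change was 0.36 ± 0.11 with an adjusted p of 0.118, so the difference did not pass the threshold. Between regimes it averaged 23.1 ± 1.90 CPM in Selected and 26.2 ± 3.90 CPM in Control populations (SD over 6 population means each), a log2 fold change of -0.21 ± 0.11 (adjusted p = 0.537).

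Eip75B (FBgn0000568, chromosome 3L, 17950953 to 18064696, minus strand), a heme-binding nuclear receptor, was the most abundant of the 10 genes. It had 117 to 194.1 CPM, median 143, on poor diet and 97.4 to 135 CPM, median 123, on standard diet. C3 on poor diet was the highest library, and 8 of 12 populations were higher on poor diet. The log2 fold change was 0.24 ± 0.09 (adjusted p = 0.198). Selected and Control populations averaged 129 ± 8.98 and 132 ± 11.01 CPM, a log2 fold change of -0.05 ± 0.07 (adjusted p = 0.839).

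Hr38 (FBgn0014859, chromosome 2L, 20683462 to 20714588, minus strand) is a nuclear receptor that can pair with usp in place of EcR. It had 3.46 to 9.19 CPM, median 5.50, on poor diet and 1.94 to 5.28 CPM, median 4.01, on standard diet. All 6 Selected and 5 of 6 Control populations were higher on poor diet, and the ranges overlapped. The log2 fold change was 0.50 ± 0.15 with an adjusted p of 0.126. It was 0.81 ± 0.22 in Selected populations (adjusted p = 0.235) and 0.22 ± 0.16 in Control populations (adjusted p = 0.920), and the test of the difference between them gave 0.57 ± 0.26 (adjusted p = 0.9999). The same receptor averaged 5.34 ± 0.999 CPM in Selected and 4.48 ± 0.879 CPM in Control populations, a log2 fold change of 0.23 ± 0.16 (adjusted p = 0.663).

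Eip74EF, Eip75B and Hr38 had positive diet fold changes in at least 8 of 12 populations, and none of the 3 was called. The gene br, not called either, was also higher on poor diet in 8 of 12. The share of all tested genes that reach such counts is not given here. Beside these values, the score of neuronal markers (mean log2 CPM) was 2.49 ± 0.539 on poor and 2.17 ± 0.473 on standard diet. The hemocyte score was 4.72 ± 0.297 on poor and 4.55 ± 0.386 on standard diet (SD, 12 libraries each). The fat body score went the other way, at 8.77 ± 0.411 on poor and 9.46 ± 0.380 on standard diet. With the hemocyte score as a covariate, the diet fold changes were 0.21 for Eip74EF, 0.14 for Eip75B and 0.31 for Hr38. With germline and midgut scores as covariates, Eip74EF stood at 0.35 and Hr38 at 0.51, and both passed (adjusted p = 0.0177 and 0.0367). Over the 22 alternatives run, the diet fold change of Eip74EF lay between 0.21 and 0.52. That of Eip75B lay between 0.14 and 0.39, and that of Hr38 between 0.31 and 0.56. Eip74EF passed in 3 of them, Eip75B in 0 and Hr38 in 2. The part of these tissues in the diet values was not tested beyond these fits.

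The nuclear receptor Hr4 (FBgn0264562, chromosome X, 1941940 to 2007956, plus strand), an ecdysone-induced repressor, varied widely between libraries. It had 42.7 to 111 CPM, median 72.3, in Selected flies on poor diet and 57.2 to 160.2 CPM, median 94.3, in Selected flies on standard diet. In Control flies it had 59.1 to 196 CPM, median 90.5, on poor diet and 74.1 to 177 CPM, median 147, on standard diet. Single libraries of the regimes overlapped widely. Averaged over both diets, however, Selected populations lay between 76.8 and 102 CPM and Control populations between 84.3 and 161 CPM, and 2 of 6 Selected populations lay below every Control population. The regime fold change was -0.55 ± 0.13 on the log2 scale with an adjusted p of 0.178, and it was -0.41 with germline and midgut scores as covariates. For diet, the fold change was -0.40 ± 0.30, with 8 of 12 populations lower on poor diet (adjusted p = 0.478).

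The zinc-finger factor br (FBgn0283451, chromosome X, 1575132 to 1664869, plus strand) is a central early gene of metamorphosis and, in ovaries, patterns the follicle cells. It had 2.27 to 11.1 CPM, median 6.33, in Selected flies on poor diet and 1.58 to 12.4 CPM, median 6.22, in Selected flies on standard diet. Control flies had 1.91 to 5.87 CPM, median 5.33, on poor diet and 1.68 to 9.03 CPM, median 2.14, on standard diet. S1 and S2 were above every Control population in their means, and the other 4 Selected populations were within the Control range. The regime fold change was 0.76 ± 0.36 on the log2 scale (adjusted p = 0.489) and the diet fold change 0.39 ± 0.35 (adjusted p = 0.557). The germline marker score was also higher in Selected populations: it was 4.11 ± 1.18 in Selected and 2.65 ± 2.12 in Control populations, and that of follicle cells was -0.13 ± 2.02 in Selected and -1.57 ± 1.06 in Control populations (SD, n = 6 each). With the germline and midgut scores as covariates, the regime fold change of br was 0.27, and with the hemocyte score it was -0.13.

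ImpE1 (FBgn0001253, chromosome 3L, 8372405 to 8391171, plus strand), an ecdysone-inducible gene for a membrane protein with LDL receptor repeats, showed the largest regime difference among the 10 genes. It had 3.02 to 9.48 CPM, median 6.37, in Selected flies on poor diet and 2.67 to 11.5 CPM, median 5.41, in Selected flies on standard diet. Control flies had 0.147 to 2.44 CPM, median 0.445, on poor diet and 0.0689 to 2.05 CPM, median 0.343, on standard diet. Every Selected library was above every Control library, and C4 was the highest Control population on both diets. Population means were 6.01 ± 2.17 CPM in Selected and 0.751 ± 0.824 CPM in Control populations (SD, n = 6 each), and the means of all 6 Selected populations were above those of all 6 Control populations. Of all tested genes, 0.786% had means that did not overlap between regimes, 0.422% with Selected higher. The fold change was 2.98 ± 0.62 on the log2 scale, 7.91-fold, and its adjusted p over all genes was 0.147.

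The separation of ImpE1 was present on each diet, at 2.82 ± 0.65 on poor diet (adjusted p = 0.161) and 3.20 ± 0.71 on standard diet (adjusted p = 0.344). Without C4 the fold change was 3.68 and passed, with an adjusted p of 0.0300. DESeq2 gave 2.99 (adjusted p = 0.000184) and limma with population as a random effect 3.53 (adjusted p = 0.000965). Over the alternatives run the adjusted p of ImpE1 lay between 0.000184 and 0.797. The highest was with the hemocyte score as a covariate, where the fold change was 2.53. That score itself differed between regimes, at 4.42 ± 0.161 in Selected and 4.85 ± 0.272 in Control populations. The fit therefore separates the score from regime poorly, and the part of hemocytes in the ImpE1 value was not tested beyond it. Diet did not move ImpE1 past the threshold. It averaged 3.55 ± 3.23 CPM on poor and 3.21 ± 3.42 CPM on standard diet, with 7 of 12 populations higher on poor diet. The log2 fold change for diet was 0.32 ± 0.25 (adjusted p = 0.501).

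The cytochrome P450 shd (FBgn0003388, chromosome 3L, 14614458 to 14622205, plus strand), also called shade, makes 20-hydroxyecdysone from ecdysone. It had 7.50 to 16.2 CPM, median 11.7, in Selected flies on poor diet and 6.56 to 16.3 CPM, median 10.4, in Selected flies on standard diet. Control flies had 12.4 to 26.5 CPM, median 17.5, on poor diet and 12.8 to 20.3 CPM, median 15.8, on standard diet. Selected populations averaged 11.2 ± 2.84 CPM and Control populations 17.4 ± 3.796 CPM, and 4 of 6 Selected populations were below every Control population. The regime fold change was -0.67 ± 0.20 on the log2 scale with an adjusted p of 0.2498 (edgeR). It passed with limma and population as a random effect (-0.68, adjusted p = 0.0403) and with DESeq2 (-0.67, adjusted p = 0.0484). The fold change was -0.41 with germline and midgut scores as covariates and -0.31 with the hemocyte score, which was 4.42 ± 0.161 in Selected and 4.85 ± 0.272 in Control populations. The part of these tissues in the regime values of shd and br was not tested beyond these fits. For diet, 7 of 12 populations were higher on poor diet, with a log2 fold change of 0.22 ± 0.11 (adjusted p = 0.314).

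The clearest diet response belonged to fiz (FBgn0030594, chromosome X, 14906334 to 14909708, minus strand), also called fezzik, a gene for a putative ecdysone oxidase of the GMC (glucose-methanol-choline) oxidoreductase family. It had 2.43 to 18.7 CPM, median 6.22, in Selected flies on poor diet and 7.20 to 44.6 CPM, median 15.8, in Selected flies on standard diet. Control flies had 5.47 to 123 CPM, median 13.0, on poor diet and 25.1 to 149 CPM, median 42.2, on standard diet. C4 and C5 were the highest on both diets. All 12 populations had less fiz on poor than on standard diet, from S5 with 12.8 against 14.8 CPM to C6 with 5.47 against 47.2 CPM. Of all tested genes, 0.373% were lower on poor diet in every population.

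The gene fell on poor diet by 1.38 ± 0.22 on the log2 scale, a level of 0.383 of that on standard diet, with an adjusted p of 0.0195 (edgeR quasi-likelihood test). The fold change was -1.28 ± 0.22 in Selected populations alone (adjusted p = 0.0698) and -1.47 ± 0.35 in Control populations alone (adjusted p = 0.920), neither past the threshold. The difference between these was 0.18 ± 0.44 (adjusted p = 0.9999), with an interval of 2 SE from -0.70 to 1.06. Without S1 the fold change over the remaining populations was -1.36 and the adjusted p 0.0576, and without the population block it was -1.08 (adjusted p = 0.313). Libraries were also paired by their titles, with the diet still taken from the characteristics. The titles name the other diet in all 24 libraries, so by their diet names the direction would be the opposite. With this pairing, fiz was lower on poor diet in 11 of 12 pairs. The fold change was -1.36 ± 0.42 and did not pass (adjusted p = 0.221). In that fit edgeR called 0 of the 10184 genes and gave 1387 an unadjusted p below 0.05.

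**Figure D2:**
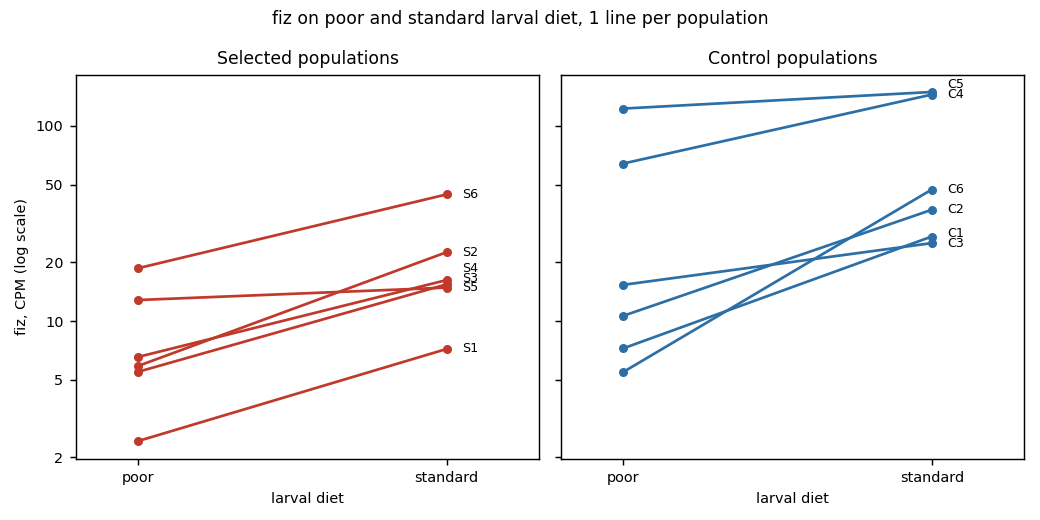
Level of fiz in CPM (log axis) on poor and standard larval diet, with 1 line joining the 2 libraries of each Selected (red) and Control (blue) population. All 12 lines are lower at the poor end, and C4 and C5 lie above the other populations.

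The 9 Malpighian tubule markers went in both directions on poor diet, and none passed the test. Uro had a log2 fold change of -2.90 (adjusted p = 0.162), while 4 of the 9 had positive ones, among them Drip, an aquaporin, at 0.41 ± 0.13 (adjusted p = 0.136) and NKCC, an ion cotransporter, at 0.32 ± 0.14 (adjusted p = 0.259). Uro, urate oxidase of the Malpighian tubule, had 0 to 32.3 CPM, median 0.760, on poor diet and 0.0318 to 32.6 CPM, median 9.22, on standard diet, with less on poor diet in 10 of the 12 pairs. The summed level of the 9 tubule markers was 115.02 to 227 TPM, median 140.0, on poor diet and 109 to 199 TPM, median 164, on standard diet. Of these markers, 0 were at 0 in all libraries, and Uro was at 0 in 1 library. C5, with the most fiz, also had the most Uro on both diets. In the 10 pairs with less Uro on poor diet, fiz was lower on poor diet too. In C2 and C3 Uro was higher on poor diet, at 0.465 against 0.0344 CPM and 1.03 against 0.0318 CPM. On standard diet both thus had very little Uro. In these populations fiz was lower on poor diet, at 10.6 against 37.2 CPM and 15.3 against 25.1 CPM. With the tubule score as a covariate, fiz fell by 1.19 ± 0.22 on the log2 scale (adjusted p = 0.0341). With Uro itself as a covariate the fold change was -1.11 ± 0.26 (adjusted p = 0.112), and with the hemocyte score -1.53 ± 0.25 (adjusted p = 0.0549). Fat body markers, too, were lower on poor diet, with scores of 8.77 ± 0.411 on poor and 9.46 ± 0.380 on standard diet. The part of fat body RNA in the fiz result was not tested, and that of tubule RNA was not tested beyond these fits.

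Between regimes fiz averaged 14.4 ± 9.09 CPM in Selected and 54.7 ± 51.8 CPM in Control populations, and 5 of 6 Selected populations were below every Control population. The log2 fold change was -1.96 ± 0.61 with an adjusted p of 0.270. It was -2.12 ± 0.80 on poor diet (adjusted p = 0.403) and -1.83 ± 0.56 on standard diet (adjusted p = 0.587). Without C5 the value on poor diet was -1.25. The gene lies inside the span of Flo2 on the opposite strand, and the labels do not say whether reads were assigned by strand. Flo2 itself had log2 fold changes of 0.07 ± 0.05 for diet (adjusted p = 0.478) and -0.21 ± 0.08 for regime (adjusted p = 0.380).

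Counted over the 10 genes, 0 were called for regime at an adjusted p below 0.05, beside 0.0295% of all tested genes, and 4 (ImpE1, Hr4, shd and fiz) had an unadjusted p below 0.05, as did 1087 of all 10184. The 10 genes were chosen with earlier results of these data known, so counts over them are no independent test of the set. The median log2 fold change of the 10 was -0.04, beside 0.00755 over all tested genes. DESeq2 called 4 of the 10, the same 4 that had a low unadjusted p, beside 221 of all tested genes (2.17%). For diet, 1 of 10 was called, fiz, beside 1.13% of all tested genes (0.864% higher and 0.265% lower on poor diet), and 5 had an unadjusted p below 0.05, as did 1793 of all tested genes. The median diet fold change was 0.23, beside -0.0265 over all tested genes. For the difference in diet response between regimes, 0 of 10 were called and 0 had an unadjusted p below 0.05, while edgeR called 0 of all tested genes and gave 155 an unadjusted p below 0.05. Within 1 diet, 0 of 10 were called for regime on poor diet, beside 0.0589% of tested genes, and 0 on standard diet, beside 0.00982%. Within 1 regime, 0 of 10 were called for diet in Selected populations, beside 0.628%, and 0 in Control populations, where 0 of all tested genes were called and 393 had an unadjusted p below 0.05.

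**Figure D3:**
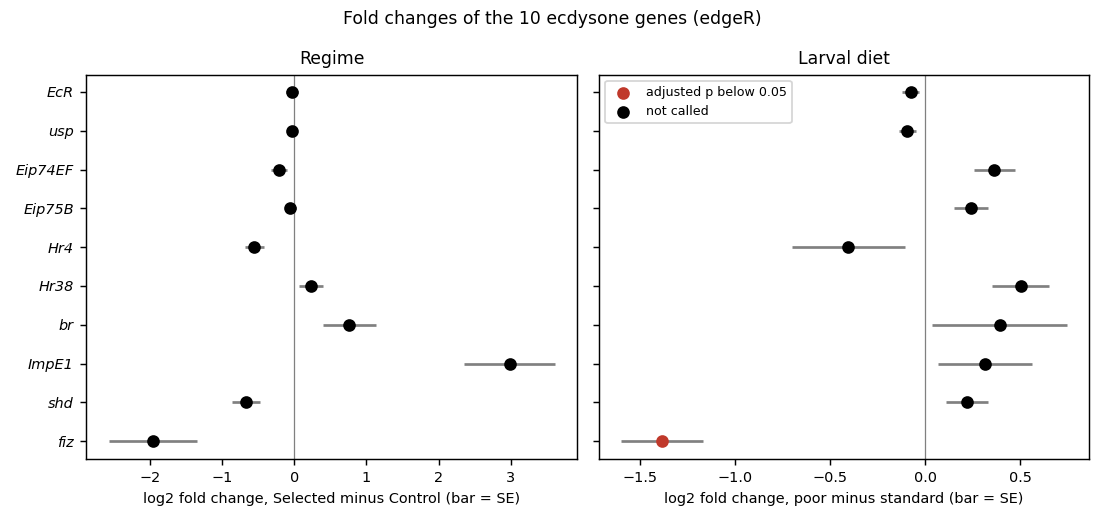
Log2 fold changes of the 10 genes for regime (Selected minus Control) and larval diet (poor minus standard), with bars of 1 SE and red for an adjusted p below 0.05. ImpE1 at 2.98 and fiz at -1.96 lie farthest from 0 for regime, and fiz at -1.38 is the one gene called for diet.

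The annotation gives most of these genes several transcripts, of which 53 were quantified and 39 passed the filter. For regime, 0 of the 39 were called, beside 0.00908% of all tested transcripts, and for diet 0, beside 0.0318%. In EcR, both leading transcripts had shares that differed between diets by more than 1 SD. EcR-RD, which holds 39.8% of the gene's estimated counts, made up 33.5 ± 7.39% of them on poor and 45.4 ± 7.39% on standard diet, while EcR-RB made up 39.6 ± 7.47% on poor and 31.3 ± 7.15% on standard diet (SD, 12 libraries each). The third, EcR-RA, made up 13.1 ± 2.93% on poor and 12.2 ± 3.46% on standard diet. EcR-RA and EcR-RD share 1 coding sequence of 2547 bases, and EcR-RB has another of 2634 bases. EcR-RD and EcR-RB each have 0 exonic bases of their own, so their shares depend on how the quantification split shared reads. The log2 fold change for diet was -0.55 ± 0.12 for EcR-RD (adjusted p = 0.102) and 0.25 ± 0.08 for EcR-RB (adjusted p = 0.262). The test of usage for EcR as a whole gave an adjusted p of 0.230 with edgeR, which called 0.457% of 5253 genes for diet, and of 0.00572 with limma, which called 1.28%. On simulated data for diet, edgeR called 41 and limma 13 unchanged genes among the 5253.

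In fiz, fiz-RA and fiz-RB start at 14909070 and 14909708 and share a coding sequence of 1938 bases, and fiz-RB has 638 bases of its own. The share of fiz-RA was 49.0 ± 36.5% on poor and 77.9 ± 19.4% on standard diet. By group it was 29.8 ± 39.9% in Selected flies on poor diet, 63.0 ± 16.03% in Selected flies on standard diet, 68.1 ± 21.5% in Control flies on poor diet and 92.7 ± 6.30% in Control flies on standard diet. The share was lowest in Selected flies on poor diet, the group with the least fiz. Fold changes on the log2 scale were -2.65 ± 0.68 for fiz-RA (adjusted p = 0.154) and -0.10 ± 0.30 for fiz-RB (adjusted p = 0.924) for diet, and -2.51 ± 0.77 for fiz-RA (adjusted p = 0.380) and 0.29 ± 0.32 for fiz-RB (adjusted p = 0.896) for regime. The usage test for fiz gave adjusted p of 0.270 for diet and 0.649 for regime with edgeR, and 0.169 and 0.355 with limma.

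**Figure D4:**
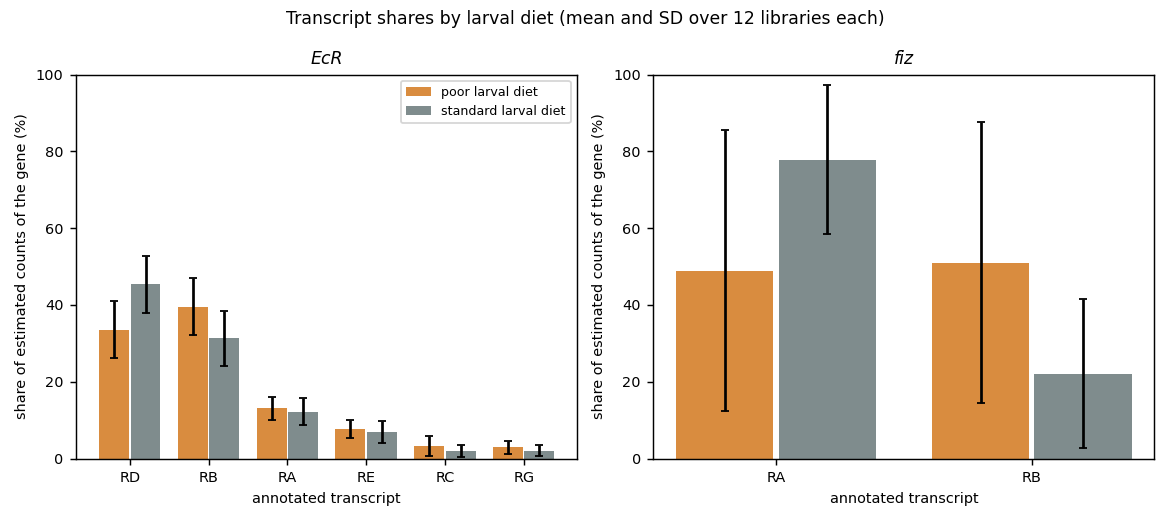
Share of each annotated transcript in the estimated counts of EcR and fiz, as the mean and SD over the 12 libraries on poor (orange) and the 12 on standard (grey) larval diet. On poor diet EcR-RD takes 33.5% against 45.4% on standard diet, and fiz-RA 49.0% against 77.9%.

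In the other genes 1 transcript or class mostly led. Of usp counts, usp-RA held 97.98%, of Hr4 counts Hr4-RI held 84.3% and Hr4-RC 10.8%, and of Eip75B counts Eip75B-RD held 71.3% and Eip75B-RF 10.7%. Eip74EF-RA, Eip74EF-RC and Eip74EF-RE have identical exons, so each received 29.1% and they cannot be told apart. Hr38-RB held 67.9% and Hr38-RD 32.1%. Of br counts, br-RL held 50.8%, br-RA 14.5% and br-RB 12.7%. In shd, shd-RB held 61.6%, shd-RC 23.99% and shd-RD 14.4%. ImpE1-RC held 72.7% and ImpE1-RA 27.1%, and ImpE1-RC had a share of 72.5 ± 29.8% in Selected and 16.4 ± 40.2% in Control populations. Control libraries held only 2 to 72 estimated counts of ImpE1 in all. ImpE1-RC has 56 exonic bases of its own and ImpE1-RA 0, so the split between them rests on few bases. For regime, usage tests called 0 of the 10 genes with edgeR, beside 0.571% of 5253 genes, and 0 with limma, beside 0.609%. Without C4, ImpE1 was called in the usage test (adjusted p = 0.0022).

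The rest of the pathway was measured from lists of other ecdysone genes, and none outside the 10 was called for regime, diet or their interaction. Of 15 tested genes of ecdysone synthesis and its control, 10 had positive and 5 negative regime fold changes, with a median of 0.24 on the log2 scale, and 13 had positive diet fold changes, with a median of 0.09. The list was led in level by sterol carriers. Npc2a had 40.4 ± 19.9 CPM in Selected and 65.2 ± 27.5 CPM in Control populations, a log2 fold change of -0.70 ± 0.32 (adjusted p = 0.464). Npc1a had 106 ± 9.91 CPM on poor and 93.5 ± 11.96 CPM on standard diet, 0.19 ± 0.06 (adjusted p = 0.144). Cyp6t3, a P450, had a diet fold change of 0.43 ± 0.15 (adjusted p = 0.187), and Ptth, the neuropeptide that drives ecdysone synthesis in larvae, a regime fold change of -0.63 ± 0.27 (adjusted p = 0.426).

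Of 6 tested genes of turnover, transport and membrane reception, 4 had positive regime fold changes, with a median of 0.22, and 4 positive diet fold changes, with a median of 0.01. Atet, an ABC transporter that loads ecdysone into secretory vesicles in the larval gland, stood closest to the threshold. It averaged 69.9 ± 11.7 CPM in Selected and 109.9 ± 18.9 CPM in Control populations, a log2 fold change of -0.67 ± 0.14 (adjusted p = 0.147). On poor diet it had 102 ± 35.4 CPM and on standard diet 77.9 ± 20.9 CPM, higher on poor diet in 11 of 12 populations, at 0.36 ± 0.09 (adjusted p = 0.0744). Oatp74D, the importer that brings ecdysone into cells, had log2 fold changes of -0.31 ± 0.19 for regime and 0.02 ± 0.09 for diet. DopEcR, a membrane receptor for dopamine and ecdysteroids, had 0.50 ± 0.27 for diet (adjusted p = 0.341), and CG13813, at a mean of 0.329 CPM, had 1.42 ± 0.65 for regime (adjusted p = 0.46).

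Among 7 receptor cofactors and related factors, 0 had an unadjusted p below 0.05 for regime or diet. The most abundant was crc, the ATF4 homologue, at a mean of 616 TPM, with log2 fold changes of -0.14 ± 0.11 for regime and 0.02 ± 0.07 for diet. The nuclear receptor svp had -0.22 ± 0.13 and 0.12 ± 0.09, bon had 0.22 ± 0.14 and -0.09 ± 0.10, and rig had 0.21 ± 0.26 and -0.32 ± 0.20, for regime and diet in that order. Medians of the 7 were 0.08 for regime and 0.02 for diet.

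Of 18 tested further response genes, 8 had positive regime fold changes, with a median of -0.04, and 13 positive diet fold changes, with a median of 0.07. Eip93F, a transcription factor of adult development, had 103 ± 20.2 CPM on poor and 77.0 ± 18.5 CPM on standard diet, a log2 fold change of 0.44 ± 0.12 with 10 of 12 populations higher on poor diet (adjusted p = 0.102). The zinc-finger gene crol had 0.20 ± 0.06 for diet (adjusted p = 0.119), and ImpL2, which encodes an insulin-binding protein, 0.31 ± 0.13 (adjusted p = 0.246). For regime, the nuclear receptor ftz-f1 had 0.38 ± 0.16 (adjusted p = 0.408) and Hr78 -0.34 ± 0.16 (adjusted p = 0.475). MsrA, a methionine sulfoxide reductase and the most abundant but one in mean TPM, had 0.16 ± 0.23 for regime and -0.14 ± 0.09 for diet.

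The relatives of fiz, other GMC oxidoreductases, lie mostly near it on chromosome X. Of 8 tested, 3 had positive and 5 negative fold changes in each comparison, with medians of -0.25 for regime and -0.10 for diet. The nearest one, CG9512, lies 785 bases from fiz and was the most abundant at a mean of 83.0 TPM. It had 125 ± 35.4 CPM on poor and 168 ± 65.7 CPM on standard diet, with less on poor diet in 10 of the 12 pairs, and had a log2 fold change of -0.38 ± 0.12 (adjusted p = 0.158). Its regime fold change was -0.14 ± 0.26 (adjusted p = 0.887). CG12398, at 2073 bases from fiz, had 0.00 ± 0.40 for diet and -0.36 ± 1.33 for regime. CG9521 had -1.46 ± 0.60 and CG9503 1.21 ± 0.65 for regime (adjusted p = 0.402 and 0.540), both at means below 1 CPM over all libraries, and Gld, glucose dehydrogenase, had 0.40 ± 0.16 for diet (adjusted p = 0.228).

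**Figure D5:**
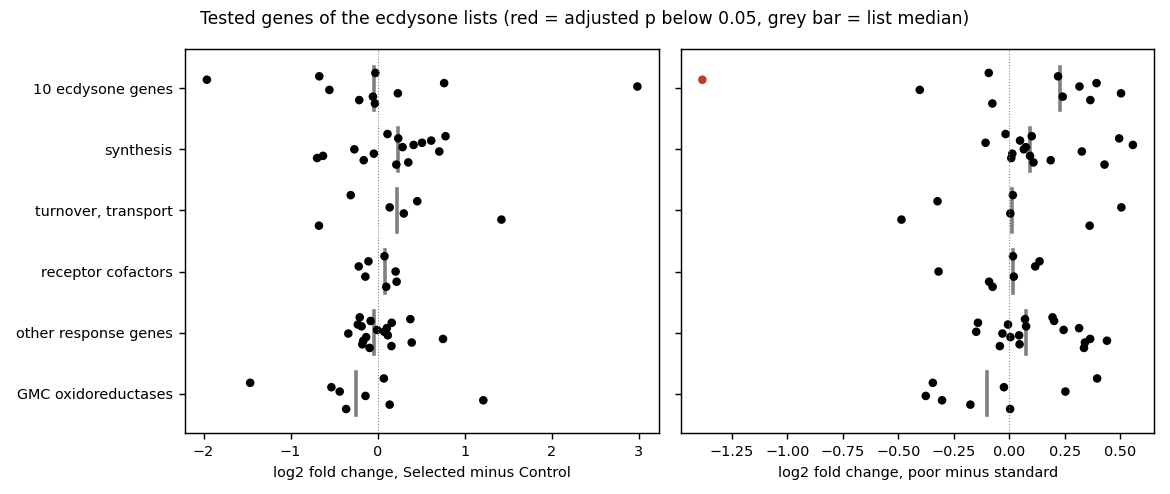
Log2 fold changes for regime (Selected minus Control) and larval diet (poor minus standard) of every tested gene in 6 ecdysone lists, 1 point per gene, with a grey bar at the list median and red for an adjusted p below 0.05. The list medians lie between -0.25 and 0.24, and fiz at -1.38 for diet is the one red point.

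Across the 24 libraries, which share populations in pairs, likeness of pattern was measured as Pearson's r of log2 CPM over 10184 genes. Hr4 was most like bru3 and trol, at r = 0.977 and 0.972, and Eip74EF most like tna and Smg5, at 0.962 and 0.928. The pattern of br was most like CG30403 and CtsL4, at 0.959 and 0.957. Eip75B was nearest to CG43394 and CG14830 (0.883 and 0.804), shd to Psf2 and Ifrd1 (0.879 and 0.875), Hr38 to Myo10A and zye (0.848 and 0.833) and usp to CG8159 and oxt (0.840 and 0.823). ImpE1 was nearest to CG32052 and CG4702 (0.835 and 0.787), fiz to Cyp4p3 and CG17029 (0.749 and 0.745), and EcR to CG15528 and yip2 (0.663 and 0.614). Among the 10 genes themselves, Eip74EF and Eip75B were the most alike at r = 0.735, followed by Eip74EF and shd at 0.642 and Eip75B and Hr38 at 0.592, while br and shd had the most opposed patterns at -0.67. EcR and usp, the partners of the receptor, had an r of 0.0155.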

How the data were processed

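The authors used kallisto 0.46.2 and build BDGP6, per the submitters' processing notes, which also name limma and edgeR. The deposited files give, per the file headers, estimated counts (not normalized) and TPM (scaled for length and depth) for each transcript and library. A deposited table of log2 CPM covers 8746 genes. Strand handling is not given in these sources. The Ensembl BDGP6.54 gene annotation, whose coordinates are printed, holds 30811 of the 30944 transcripts, matched by ID, and the 133 others held 0.282% of counts. Counts were summed per gene and rounded. Reads of 150 bases came from 2 lanes.

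Regime was tested on 12 population sums and diet on 24 libraries with population as a block, with edgeR 4.0.16 (quasi-likelihood, TMM, filterByExpr, Benjamini-Hochberg adjusted p below 0.05) over 10184 genes or 22022 transcripts, and transcript usage with edgeR's diffSpliceDGE. The block pairs the 2 libraries of a population, as the characteristics in the labels give them (the titles pair 6 of 12 otherwise). Deviations of the 2 libraries correlated at 0.22 on average, from -0.23 in S5 to 0.69 in C2. CPM uses TMM library sizes, and log2 CPM adds a prior count of 2. Alternatives used DESeq2 1.42.0, limma 3.58.1, other filters, left-out populations and marker scores (mean log2 CPM). The tests were checked on simulated data. Other symbols named are each list's most abundant genes, those with the smallest p, transcripts with at least 10% of a gene's counts, and the most alike genes. The genes, lists and tests were chosen with earlier results of these data known. Depth was 22386162 to 31473757 counts a library, so counting error weighs most on genes below 1 CPM, here ImpE1 in Control flies. Correlations between libraries ran from 0.841 to 0.978.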

Additional observations from a re-analysis of the deposited data

Results flagged for a closer look

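In 3 of 40 groups of 6 libraries, 1 library stood apart from the other 5 by Dixon's criterion, which chance alone meets in about 1 of 20 groups. Eip75B had 117 CPM in S4 of the Selected populations on poor diet, below the next lowest library at 138 CPM. Hr38 had 1.94 CPM in S1 of the Selected populations on standard diet, against 3.71 CPM in the next lowest. The level of br was 9.03 CPM in C4 of the Control populations on standard diet, against 2.72 CPM in the next highest. The germline and midgut marker scores of that library were 6.23 and 6.96, each the highest of the 12 Control libraries. The part of these tissues in that br value was not tested.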

How the results depend on the processing

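Counts over all tested genes (or transcripts) follow in brackets. For regime, the main count of 0 genes called (3) became 4 with DESeq2 (221), 2 with population as a random effect, ImpE1 and shd (155), and, leaving out populations, 0 to 1 (ImpE1 without C4, 36). For diet, the main count of 1 became 3 with DESeq2 (548) and with germline and midgut scores (592), and 2 with the tubule score (175). It became 0 with the hemocyte score (4), with Uro (1), with the pairs that the titles give (0) and without the population block (21). When populations were left out it was 0 to 1 (0 without S1, 3). Of 22 alternatives 17 kept fiz called. DESeq2 called 1 for regime on poor (210) and 1 on standard diet (51), 2 for diet in Selected (395) and 1 in Control populations (15). In Selected populations 2 were called for diet with germline and midgut scores (347), 1 on the deposited log2 table (71) and 0 to 1 leaving out populations (fiz without S5, 30). Among transcripts, 0 to 1 were called for regime (ImpE1-RC without C4, 15) and 0 to 1 for diet (EcR-RD without C5, adjusted p = 0.0378, 59); usage gave 0 to 1 for regime (without C4, 55) and, with limma, 1 for diet (67). The cause of these changes was not tested. Same-numbered libraries of the regimes correlated at -0.15 on average on each diet. The values ran from -0.41 to 0.10 on poor and from -0.66 to 0.23 on standard diet. They scatter too widely to decide whether shared population numbers pair the regimes. Adding the shared number as a block left 0 genes called for regime. No called value reversed. The fits with tubule, hemocyte or Uro terms or the titles' pairs and limma's usage test were chosen after seeing the data. Of single-gene values, 21 newly passed the threshold and 5 no longer passed it. A further 29, called in neither fit, differed from the reported value by more than its SE. The other 1128 kept their call and were either within that SE or called in both fits.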
